A study of Mus musculus with 4 samples.

Results

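Solute carriers are membrane proteins that move small molecules and ions across the plasma membrane and the membranes of organelles, and their gene symbols number them by family. The genes described here are those with a symbol of the form Slc followed by a number, Slc7a5 left out, each read from the probe set with the highest mean signal over the 4 arrays. They were 150 of the 8251 genes with a single symbol on the array, and 184 probe sets carried them. Counted among them are 3 genes that are not carriers themselves (Slc4a1ap, Slc9a3r1 and Slc9a3r2), and later counts of carriers include these. Total RNA of mouse embryonic stem (ES) cells and extraembryonic endoderm (XEN) cells was hybridised to 4 Affymetrix MG_U74Av2 arrays, 1 per culture. The ES array held 1 culture of R1 cells, kept undifferentiated on gelatin with LIF, a cytokine that maintains ES cells. The XEN arrays held 3 cultures of 2 lines: IM8A1-I and IM8A1-II of the IM8A1 line (PO strain, passage 27) and XEN1-3 (ICR strain, passage 18). IM8A1-I and XEN1-3 were both on gelatin in medium labelled 70% EMFI-CM, while IM8A1-II had spent 4 days on culture plastic in RPMI 1640 with 20% FBS (fetal bovine serum). Where the values of all XEN cultures are given in a row, they follow the order IM8A1-I, IM8A1-II, XEN1-3.

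Some carriers exchange one solute for another, some couple uptake to the sodium or proton gradient, and others are uniporters that let a solute run down its own gradient. XEN cells stem from the lineage that builds the yolk sac endoderm, both parietal and visceral, tissues that take up nutrients for the embryo and secrete basement membrane. Several carriers work with a partner, as the amino acid exchangers of family 7 do with the heavy chain Slc3a2, and the monocarboxylate carriers of family 16 with the glycoproteins Bsg and Emb.

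Signal is in arbitrary units, and levels of different probe sets are not comparable with each other. The background limit was set at 27.3 units, the 40th percentile of all values, and is not a detection call. Differences between groups are on the scale of log2(signal + 10.5), which understates the change of dim genes. They were tested with limma, and a gene was called when its p adjusted over all 8582 tested probe sets was under 0.05. The ES array came from another chip lot than the XEN arrays. The ES culture was described with LIF, and the XEN cultures with EMFI-CM or RPMI medium. Cell type, cell line, culture medium and lot therefore cannot be told apart. With 1 ES array the test borrows the spread between the XEN cultures, which may be technical in part. The run record of XEN1-3 carries a message that fluid was not detected. In bulk RNA, fewer cells of a type and less RNA per cell cannot be told apart. The markers matched the labels: all 4 ES markers (Pou5f1, Sox2, Nanog, Zfp42) were lower and all 7 XEN markers (Gata4, Gata6, Sox7, Sox17, Foxa2, Dab2, Lama1) higher in XEN. Of 10 fibroblast and feeder genes 8 were tested, and Thy1 was called lower in XEN. Before adjustment 4 were lower and 1 higher with p under 0.05, the higher one being Col1a2, at 206 in ES and 352, 353 and 403 in XEN (0.81, limma adjusted p = 0.110). Twist1 was uneven, at 11.8 in ES, 156 and 87.5 in the IM8A1 cultures and 5.80 in XEN1-3, without passing. Tagln (37.7 and 214) and Acta2 (7.30 and 40.6) were at least 2-fold higher in IM8A1-II than in IM8A1-I, and 0 were lower. The summed signal of the 10 was 1191 in ES and 702 to 852 in XEN. Such sums give most weight to the brightest probe sets, here Tagln in ES and Col1a2 in XEN. Of 6 trophoblast genes on the array 3 were tested and 0 called by limma (before adjustment, 1 lower and 0 higher with p under 0.05; Eomes had an adjusted p of 0.0626), with Cdx2, Elf5 and Tpbpa under the limit on all arrays. The sums of these 6 were 164 in ES and 84.9 to 109 in XEN. What part such cells have in the results was not tested.

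Of the 150 genes, 112 reached the limit on at least 1 array and were tested, and the probe set chosen for the other 38 lay under it on every array. For 1 of these, Slc6a2, another probe set reached 34.0 units in XEN1-3 and did not pass (0.59, adjusted p = 0.476). In XEN cells 10 of the tested genes were higher and 4 lower, and 98 did not pass. These shares, 8.93% and 3.57%, stand beside 5.58% and 5.05% of all tested probe sets, and beside 5.75% and 5.37% of all 6345 tested genes read from 1 probe set each. The carriers as a whole were called at shares near those of other genes, and the difference between the shares was not tested. Of the tested genes 87 reached the limit in both groups, 21 in XEN alone and 4 in ES alone. The last 2 sets had to differ to be tested, and they hold 3 of the 10 higher genes and 2 of the 4 lower ones. The median log2 difference of the tested carriers was 0.43, against 0.05 over all tested probe sets, and 0.22 over all 150 with no filter on dim genes. With no filter, ES lay below all 3 XEN arrays for 74 of the 150 carriers (49.3%) and above them for 33 (22%), beside 36.8% and 32.8% of all 8251 genes. Under median scaling, which moved the median of all tested probe sets to -0.04, the shares were 40.7% and 26.7% for the carriers and 32% and 36.8% for all genes. The difference between these shares was not tested.

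The count of higher genes rested on single arrays. It was 1 without IM8A1-I, 5 without IM8A1-II and 19 without XEN1-3, and the count of lower genes was 3, 3 and 6. The single gene that remained higher without IM8A1-I was Slc16a1. Without XEN1-3 the XEN arrays left are 2 cultures of the IM8A1 line, so that run holds no spread between lines. Over all tested probe sets the share called higher also moved, to 2.16%, 2.71% and 9.07%.

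**Figure D1:**
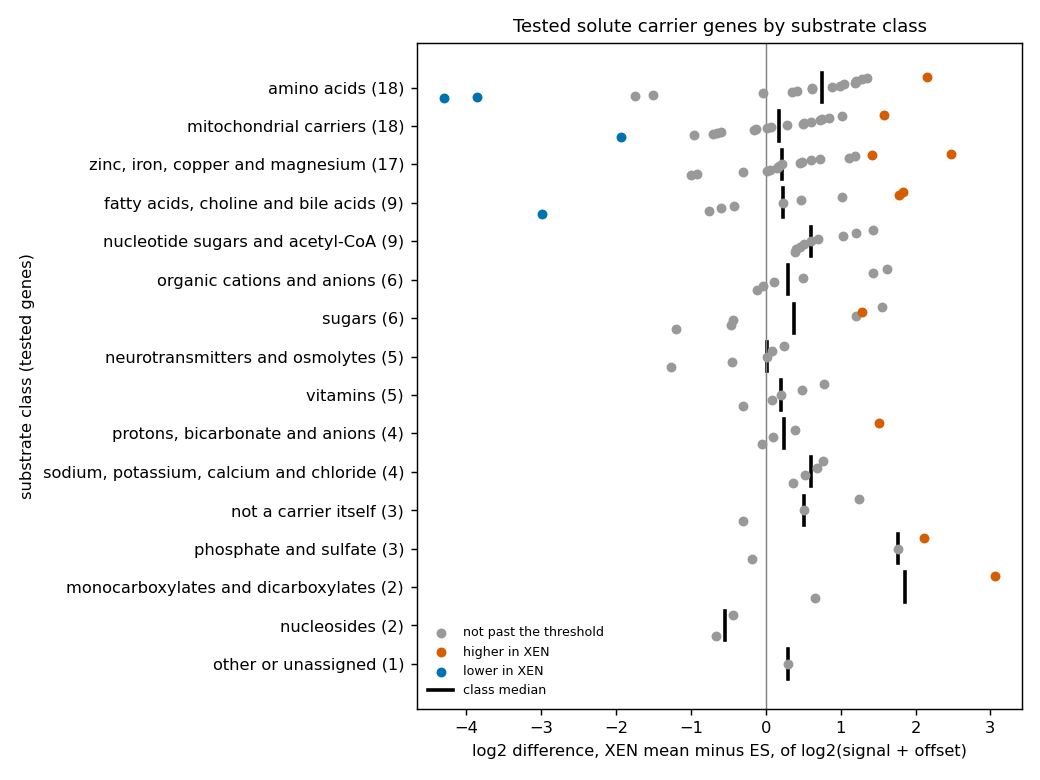
Log2 difference (XEN mean minus ES, x axis) of each tested solute carrier gene, by substrate class (y axis, tested genes in brackets). Each point is 1 gene, orange where called higher, blue where called lower and grey otherwise, and black bars are class medians. The 14 called genes are spread over 8 classes.

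The largest rise was that of the monocarboxylate carrier. Slc16a1 (MCT1), which moves lactate, pyruvate and ketone bodies with a proton, stood at 33.0 units in ES and at 253, 605 and 284 in the XEN cultures. All XEN cultures lay above ES, and IM8A1-II was the highest. The log2 difference was 3.06 ± 0.52 (SE, limma adjusted p = 0.0240), and the adjusted p was 0.0911 with values raised to the limit. Of the other genes of its class, Slc16a8 (MCT3) was at 25 in ES and 46.9 ± 15.5 in XEN (SD, n = 3) without passing, and Slc16a7 (MCT2) was under the limit on every array. The promoter of Slc16a1 is shown with the amino acid carriers, where promoters are compared.

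Neither partner of this carrier passed. Bsg (basigin), the ancillary protein of MCT1, stood at 1407 units in ES and at 2200, 1664 and 2422 in the XEN cultures, a log2 difference of 0.55 with an adjusted p of 0.283. Emb (embigin), a related glycoprotein, was at 542 in ES and at 63.0, 1036 and 94.9 in XEN, highest in IM8A1-II. Its log2 difference between IM8A1-II and IM8A1-I was 3.83, with no test possible for 1 array each. Without IM8A1-II it was called lower in XEN, by limma, at -2.65 (adjusted p = 0.0325). Both were named after their values were seen.

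Among sugar carriers 1 of 6 tested genes rose and 5 did not pass. Slc2a3 (GLUT3), a high-affinity glucose uniporter, rose from 2977 units in ES to 6388, 8298 and 7134 in the XEN cultures. The groups did not overlap, and the log2 difference was 1.28 ± 0.26 (SE, adjusted p = 0.0357). A second probe set of this gene rose too, from 570.3 to 1919, 3473 and 2566 (2.16, adjusted p = 0.0252). On the first probe set the adjusted p was 0.0825 without IM8A1-I and 0.0543 without IM8A1-II. It was 0.100 with no filter, 0.0556 with no variance trend and 0.0778 on values floored at the limit. Slc2a1 (GLUT1), the widely expressed glucose uniporter, was at 1108 in ES and lower in each XEN culture, at 479.6, 717 and 310.3, without passing (-1.20 ± 0.47, adjusted p = 0.159). The difference between these 2 responses was not tested. Slc50a1, a sugar carrier of the secretory pathway, stood at 90.8 and 225 ± 42.1, and Slc37a4, the glucose 6-phosphate translocase of the endoplasmic reticulum, at 31.1 and 117 ± 46.6. Neither passed (adjusted p of 0.0626 and 0.0745).

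**Figure D2:**
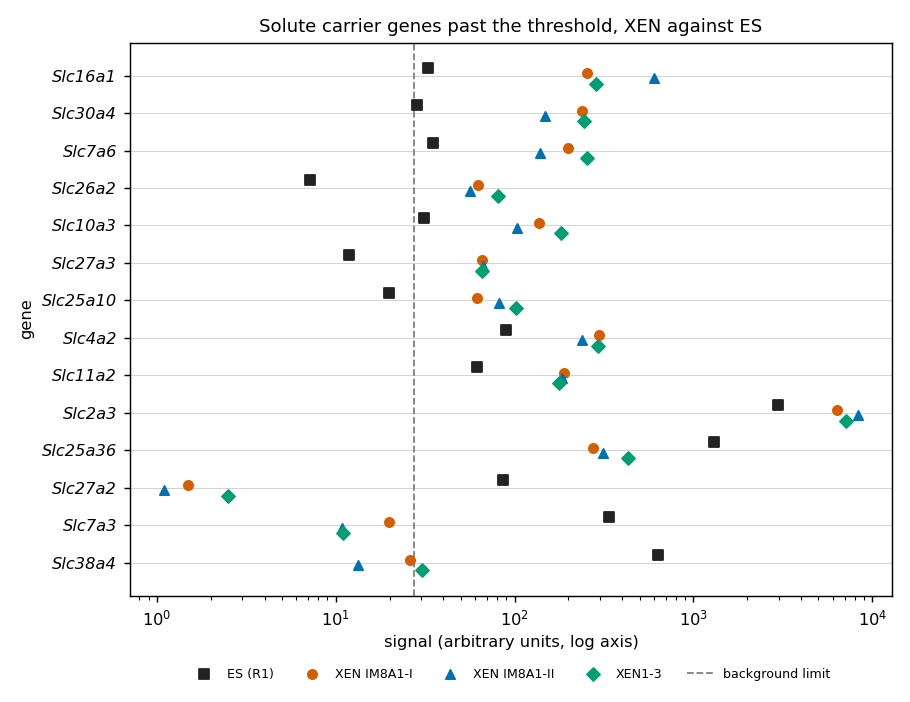
Signal (x axis, log scale, arbitrary units) of the 14 solute carrier genes called between XEN and ES, 1 row per gene, 1 point per array, ordered by log2 difference. The dashed line is the background limit of 27.3 units. In every row the ES point lies outside the range of the 3 XEN points, from Slc16a1, with the largest rise, to Slc38a4, with the largest fall. This follows in large part from their choice as called genes. With no filter, ES lay below all 3 XEN arrays for 36.8% of all 8251 genes and above them for 32.8%.

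The amino acid class held the largest falls. Of 22 genes on the array 18 were tested, 1 was higher, 2 were lower and 15 did not pass, with a median of 0.75. Slc38a4 (SNAT4), a sodium-coupled carrier of neutral and cationic amino acids known as an imprinted gene, stood at 635 units in ES. In XEN it was at 26, 13.4 and 30.2, around the background limit and under it in 2 of 3. The log2 difference was -4.30 ± 0.39 (SE, adjusted p = 0.00567), a size that rests on signal near background. Slc7a3 (CAT3), a carrier of arginine and other cationic amino acids, stood at 338 in ES and under the limit in XEN, at 19.9, 10.8 and 11, which is at least 12.4-fold lower (adjusted p = 0.00596). Both falls passed in every alternative run, with an adjusted p of at most 0.0180 for Slc38a4 and 0.0177 for Slc7a3. Slc1a6 was at 42.8 in ES and under the limit in XEN, at 8.20, 8.90 and 7.70, without passing (limma adjusted p = 0.0628). Some alternatives called it lower, among them no filter (0.0378), no variance trend (0.0306) and values raised to the limit (0.00406).

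In the opposite direction, Slc7a6 (y+LAT2), which exchanges cationic for neutral amino acids as a partner of Slc3a2, rose from 35.0 units to 198, 139 and 254. Its log2 difference was 2.15 ± 0.38 (SE, adjusted p = 0.0267), and its second probe set rose from 3.00 to 40.9, 32.7 and 37.9 (adjusted p = 0.0319). The adjusted p of the first was 0.0736 without IM8A1-I and 0.0817 on floored values. Family 7 thus had a member called in each direction. Slc7a1 (CAT1), the widely expressed relative of Slc7a3, was at 2.20 in ES and uneven in XEN, at 51.8, 19.3 and 8.0. Slc7a2 (CAT2) stood at 7.10 and 33.0 ± 8.17 (SD, n = 3), and neither passed (adjusted p of 0.261 and 0.0901). The cystine carrier Slc7a11 lay under the limit on all 4 arrays.

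Several carriers of glutamine and other neutral amino acids were brighter in XEN but did not pass. Slc38a2 (SNAT2), a sodium-coupled carrier of small neutral amino acids, stood at 578 units in ES and at 1623, 1613 and 920 in the XEN cultures (log2 difference 1.20, adjusted p = 0.113). Its other probe sets lay under the limit on all arrays, and with the mean over probe sets the adjusted p was 0.457. Slc1a5 (ASCT2), an exchanger that carries glutamine, was at 48.5 in ES and at 216, 63.8 and 139.6. Slc1a4 (ASCT1), which exchanges alanine, serine and cysteine, was at 190.1 and at 658, 257 and 521. Slc3a2, the heavy chain that brings family 7 light chains to the cell surface, was at 1089 and at 3811, 1283 and 2090. Each of these 4 genes was above ES in all 3 XEN arrays, which follows in part from their choice as brighter in XEN. With no filter, the same held for 49.3% of the 150 carriers and 36.8% of all 8251 genes. In Slc1a5, Slc1a4 and Slc3a2, IM8A1-II was the lowest of the XEN cultures.

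**Figure D3:**
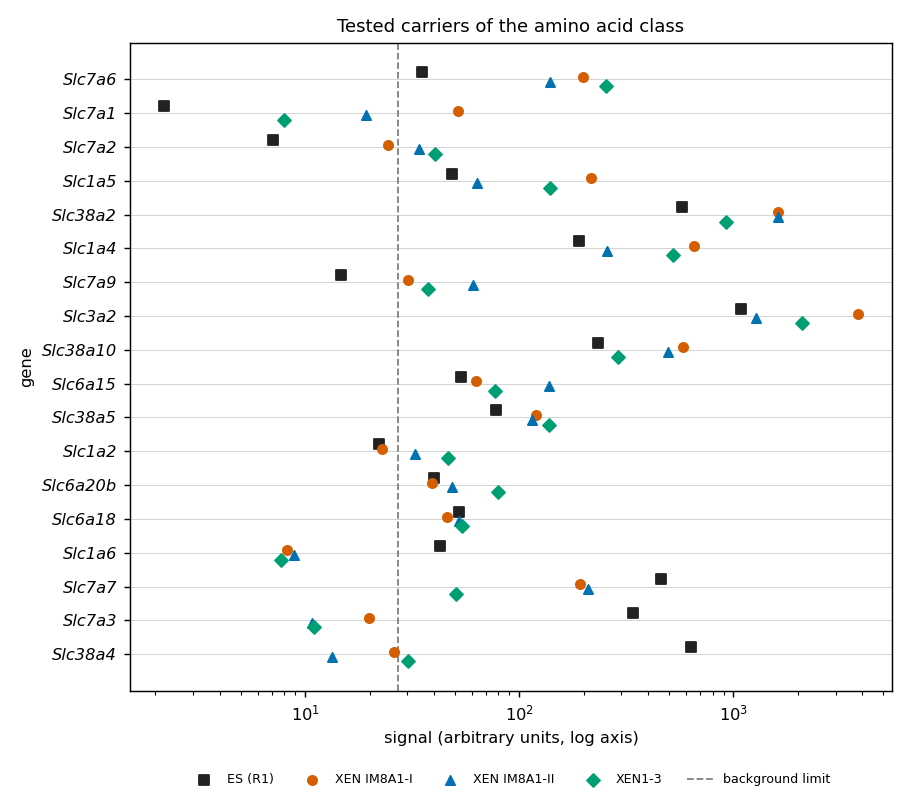
Signal (x axis, log scale, arbitrary units) of the 18 tested genes of the amino acid class, 1 row per gene, ordered by log2 difference. Points are single arrays and the dashed line is the background limit of 27.3 units. Slc38a4 and Slc7a3 at the bottom show ES at 635 and 338 units, far right of the XEN points, and in Slc1a4, Slc1a5 and Slc3a2 the IM8A1-II point lies nearest to ES.

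For Slc1a4 and Slc3a2, which were lower in IM8A1-II, and for Slc16a1, promoter windows of 300 bases (250 before to 50 after the start) were read from RefSeq, build GRCm38.p6, which had windows for 124 of the 150 genes. Slc1a5, also lower in IM8A1-II, had no window. The windows are shown because their genes moved between XEN cultures, together with 2 short motifs searched on both strands. TGATGNAA is the core shared by C/EBP-ATF response elements, known from genes induced by amino acid shortage, and CACGTG is the E-box bound by Myc and related factors. Capitals mark the matches, and the sequences read 5′ to 3′ on the gene's strand. Slc1a4 is at chr11:20332664-20332963 on the minus strand, Slc3a2 at chr19:8713848-8714147 on the minus strand and Slc16a1 at chr3:104638414-104638713 on the plus strand.
Slc1a4: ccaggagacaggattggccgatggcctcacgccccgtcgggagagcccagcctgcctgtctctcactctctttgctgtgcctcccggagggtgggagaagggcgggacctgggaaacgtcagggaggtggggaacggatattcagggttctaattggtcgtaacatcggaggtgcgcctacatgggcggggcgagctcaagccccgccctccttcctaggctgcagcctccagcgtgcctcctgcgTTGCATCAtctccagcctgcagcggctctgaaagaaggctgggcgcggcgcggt
Slc3a2: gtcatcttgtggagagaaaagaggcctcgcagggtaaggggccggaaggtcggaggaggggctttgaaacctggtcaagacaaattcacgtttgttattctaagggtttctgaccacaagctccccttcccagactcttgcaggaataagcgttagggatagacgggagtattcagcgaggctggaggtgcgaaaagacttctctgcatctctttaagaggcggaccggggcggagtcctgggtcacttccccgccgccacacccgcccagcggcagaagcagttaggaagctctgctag
Slc16a1: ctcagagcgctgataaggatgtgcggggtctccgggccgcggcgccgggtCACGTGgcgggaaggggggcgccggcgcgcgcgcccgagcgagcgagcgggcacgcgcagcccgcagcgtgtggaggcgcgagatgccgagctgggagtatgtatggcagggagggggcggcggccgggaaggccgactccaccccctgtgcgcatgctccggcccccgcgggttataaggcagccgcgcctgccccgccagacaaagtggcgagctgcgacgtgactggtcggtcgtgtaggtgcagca
The Slc1a4 window held 1 match to TGATGNAA, read on the opposite strand, and the Slc16a1 window held 1 CACGTG. The Slc3a2 window held 0 of either. Of all 32851 windows 3.97% held TGATGNAA and 7.15% CACGTG, and of the 175 windows of solute carrier genes 7 (4.00%) and 22 (12.6%). The 6 genes with TGATGNAA were Slc1a4, Slc7a7, Slc7a11, Slc17a1, Slc23a3 and Slc50a1. A match describes the letters of the window and is not a measured binding site, and the lack of one does not cover sequence outside the window.

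All 17 genes of the zinc, iron, copper and magnesium class were tested, of which 2 rose and 15 did not pass (median 0.22). Slc30a4 (ZnT4), which loads zinc into vesicles, stood at 28.4 units in ES and at 239, 149 and 244 in the XEN cultures. It rose by 2.47 ± 0.37 in log2 (SE, adjusted p = 0.0171). Another, dim probe set for it lay under the limit on all arrays. Slc11a2 (DMT1), the proton-coupled iron carrier of the plasma membrane and endosomes, rose from 61.8 to 189, 185 and 177, nearly level across the XEN cultures (1.42 ± 0.26, adjusted p = 0.0289). Its other probe set, at 99.1 in ES and 164, 154 and 150.1 in XEN, did not pass (0.60, adjusted p = 0.192). When IM8A1-I was left out, Slc30a4 and Slc11a2 had adjusted p of 0.0505 and 0.0871, and for Slc11a2 it was 0.0795 without IM8A1-II and 0.0565 with each XEN line counted once. Slc30a4 stood at 0.0606 on values floored at the limit, and with the mean over probe sets the 2 genes stood at 0.0518 and 0.0621.

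Of 7 tested zinc importers of family 39, 0 were called by limma (before adjustment, 2 higher and 0 lower with p under 0.05). Slc39a7 (ZIP7), which releases zinc from the endoplasmic reticulum, was at 293 in ES and 685 ± 86.7 in XEN (adjusted p = 0.0528), and Slc39a8 (ZIP8) at 27.7 and 72.7 ± 12.2 (0.0801). Both passed as higher without XEN1-3 (0.0456 and 0.0437), a run with only the IM8A1 line left. With each XEN line counted once they stood at 0.0814 and 0.133. Slc39a7 also passed with the filter at the 60th percentile (0.0445). The probe sets of Slc39a4 (ZIP4) disagreed, at 0.02 and -1.11 in log2. Slc31a1 (CTR1), the copper importer, lay at 317 in ES and between 313 and 461 in XEN, where the groups overlapped (0.17). Its second probe set went the other way without passing, at 208 in ES and 177, 205 and 131 in XEN (-0.28, limma adjusted p = 0.607).

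Among 27 partner genes of the carriers 19 were on the array and 16 tested, of which 1 fell and 15 did not pass. The 1 was Mt2, a metallothionein that binds zinc and copper. It stood at 3861 units in ES and at 437, 519 and 148 in XEN, a log2 difference of -3.53 ± 0.69 (SE, adjusted p = 0.0334). The adjusted p was 0.0638 without IM8A1-I, 0.0595 with no filter and 0.138 with values raised to the limit. Mt1, its neighbour in function, was at 1160 and at 287, 426 and 43.2 without passing (adjusted p = 0.189). Tfrc, the transferrin receptor of iron uptake, was at 520 in ES and 532 ± 182 in XEN.

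Carriers of fatty acids, choline and bile acids had 2 rises and 1 fall among 9 tested genes (13 on the array). Slc27a2 (FATP2), a very long-chain acyl-CoA synthetase and fatty acid transport protein, stood at 86.3 units in ES and at 1.50, 1.10 and 2.50 in XEN, under the limit in each, at least 3.16-fold lower (adjusted p = 0.0144). It passed in every alternative, with an adjusted p of at most 0.0444. Its relative Slc27a3 (FATP3) went the other way, from 11.9 to 66.0, 66.9 and 66.0, at least 2.43-fold higher (adjusted p = 0.0216). It was 0.0682 without IM8A1-I and 0.0639 without IM8A1-II. Slc10a3, a member of the bile acid carrier family with no settled substrate, rose from 31.2 to 137, 104 and 181 (1.83 ± 0.36, adjusted p = 0.0348). This became 0.0895 without IM8A1-I, 0.0641 with no filter, 0.050045 with an offset at the 50th percentile and 0.0894 on floored values. Slc51a, a subunit of a bile acid exporter, stood at 9.10 in ES and at 38.7, 31 and 20.0 in XEN and did not pass.

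Mitochondrial carriers, which exchange metabolites across the inner mitochondrial membrane, had 1 rise and 1 fall among 18 tested genes (median 0.18). Slc25a36, a pyrimidine nucleotide carrier, fell from 1305 units in ES to 276, 311 and 433 in XEN. The groups did not overlap, with a log2 difference of -1.93 ± 0.34 (SE, adjusted p = 0.0251). Slc25a10, the dicarboxylate carrier, which swaps malate or succinate for phosphate, stood at 19.9 in ES and at 61.3, 81.7 and 102 in XEN, at least 2.93-fold higher. Its adjusted p of 0.0477 was close to the threshold and was 0.0685 without IM8A1-I, 0.110 without IM8A1-II and 0.0584 with each XEN line counted once. An offset at the 50th percentile gave 0.0660. With no filter it was 0.0878, with values raised to the limit 0.119 and with the filter at the 60th percentile 0.0525. Slc25a36 had adjusted p of 0.0687 without IM8A1-I, 0.0652 without IM8A1-II and 0.0763 on floored values.

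Others of this class did not pass. Slc25a4 (ANT1), an ADP/ATP carrier, was at 1788 in ES and 2550 ± 471 in XEN, and Slc25a5 (ANT2), its relative, at 583 and 380 ± 133 on a probe set that can share signal with related sequences. Slc25a1, the citrate carrier, was at 780.0 in ES and at 351, 503 and 352 in XEN (adjusted p = 0.114), and its second probe set differed by -0.15.

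Carriers of phosphate and sulfate had 1 rise among 3 tested genes, and carriers of protons, bicarbonate and anions 1 among 4. Those of sodium, potassium, calcium and chloride had 0 calls by limma among 4, and 0 before adjustment with p under 0.05. Slc26a2 (DTDST), a sulfate carrier that supplies sulfate for proteoglycan synthesis, was under the limit in ES at 7.20 units and at 62.5, 56.0 and 81.2 in XEN, at least 2.41-fold higher (2.11 ± 0.34 in log2, adjusted p = 0.0206). Without IM8A1-I its adjusted p was 0.0618, and with values raised to the limit 0.106. Slc4a2 (AE2), the widely expressed chloride/bicarbonate exchanger, rose from 89.4 to 298, 240 and 292 (1.52 ± 0.28, adjusted p = 0.0297). Its adjusted p was 0.0880 without IM8A1-I, 0.0625 without IM8A1-II and 0.0504 with each XEN line counted once. Of the cation-chloride cotransporters Slc12a5 (KCC2) had the smallest p without passing, at 16.2 in ES and 35.1 ± 5.91 in XEN, and Slc12a4 (KCC1) stood at 177 and 259 ± 28.3. The phosphate carrier Slc20a1 lay within the XEN range, at 447 in ES and 407, 329 and 452 in XEN.

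Nucleotide sugar carriers feed glycosylation in the Golgi apparatus and the endoplasmic reticulum. Their class follows the family number, so it holds members with another substrate or none settled, among them Slc35b2 and Slc35e1. With the acetyl-CoA carrier Slc33a1 it came to 11 genes. Of these, 9 were tested and 0 called by limma (before adjustment, 2 higher and 0 lower with p under 0.05). The median of the tested genes was 0.60. With no filter 9 of 11 had ES below all 3 XEN arrays, beside 36.8% of all genes. Under median scaling it was 8, beside 32% of all genes. The 9 include Slc33a1, which was under the limit on all arrays. Slc35e1, a member without a settled substrate, had the smallest p: 103 units in ES and 324, 225 and 355 in XEN (1.43, adjusted p = 0.0547). Its second probe set did pass (1.27, adjusted p = 0.0414), and the mean over both probe sets passed as well (0.0455). That second probe set is of a type that can share signal with related sequences. Slc35b1, a nucleotide carrier of the endoplasmic reticulum, was at 373 in ES and at 941, 673 and 732 (1.03, adjusted p = 0.0851).

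The other classes held no call by limma (before adjustment, 2 higher and 1 lower with p under 0.05). Of 11 carriers of neurotransmitters and osmolytes 5 were tested. The creatine carrier Slc6a8, at 126 in ES and 46.9 ± 10.7 in XEN, had the smallest p (-1.27, limma adjusted p = 0.0650). The adjusted p was 0.0294 without XEN1-3, with only the IM8A1 line left, and 0.105 with each XEN line counted once. Its other probe set lay under the limit on all arrays, and the mean over probe sets gave 0.257. The organic cation and anion class had 6 tested genes, led by Slc22a21, a carnitine carrier, at 2.10 and 28.6 ± 7.67 (adjusted p = 0.0622, and 0.0421 with an offset at the 5th percentile). The equilibrative nucleoside carriers Slc29a1 and Slc29a2 stood at 541 and 33.1 in ES and at 409 ± 128 and 19.3 ± 15.2 in XEN. Vitamin carriers had 5 tested genes, with Slc23a3 at 147 in ES and 208 ± 13.6 in XEN (0.48, adjusted p = 0.287). Slc66a2, of no assigned class, was at 173 and 217 ± 38.9. Slc15a2 (PEPT2), the peptide carrier, lay under the limit on all arrays.

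The IM8A1 line was measured in 2 culture conditions, with 1 array each and no replicate check. By their labels the 2 differed in surface, medium and serum at once, so that these cannot be told apart. At least 2-fold differences were seen for 12 of 112 carriers (10.7%), against 5.98% of all tested probe sets. With an offset at the 50th percentile the count was 7. Of these, 5 were higher in IM8A1-II and 7 lower, where the shares of all tested probe sets were 3.51% and 2.47%. Slc12a2 (NKCC1), the sodium-potassium-chloride cotransporter that serves cell volume, stood at 408 units in IM8A1-I and 1361 in IM8A1-II, a log2 difference of 1.71, and at 306 in ES and 218 in XEN1-3. Slc6a6 (TauT), the carrier of the osmolyte taurine, was at 269 and 614 (1.16), and its dim second probe set was at 9.20 and 49.0. Slc16a1 was higher by 1.22. Slc9a3r1 (NHERF1), a scaffold that anchors carriers at the apical membrane and is not a carrier itself, was at 777, 1752 and 295 in XEN, beside 307 in ES (1.16 between the IM8A1 cultures).

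Of the 7 that were lower in IM8A1-II, 4 belonged to the amino acid class: Slc1a5 (-1.61), Slc3a2 (-1.56), Slc1a4 (-1.32) and Slc7a1, which went from 51.8 to 19.3 units, under the limit. The amino acid carrier Slc6a15 went the other way, from 62.6 to 138 (1.02), and Slc38a2 was level, at 1623 and 1613. The median of the 18 tested genes of the class was -0.04, against 0.01 over all tested probe sets. Slc19a1, the reduced folate carrier, stood at 160.4 units in IM8A1-I and 62.3 in IM8A1-II (-1.23), but a second probe set showed 70.3 and 73.9. The renal-type carriers Slc22a12 and Slc22a2 completed the 7, at 98.5 and 43.0, and at 47.7 and 15.2.

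**Figure D4:**
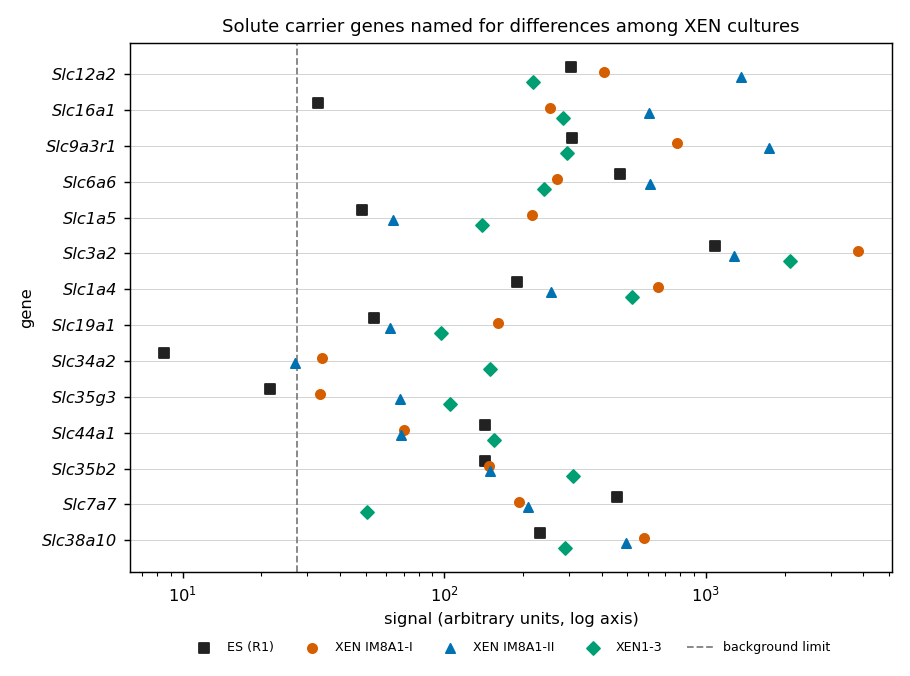
Signal (x axis, log scale, arbitrary units) of the 14 solute carrier genes named for their differences among XEN cultures, 1 row per gene and 1 point per array. The dashed line is the background limit of 27.3 units. In the upper 4 rows IM8A1-II is the highest point, in the next 4 IM8A1-I is, and Slc7a7 has its XEN1-3 point at 50.7 units, left of the others.

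Against the same IM8A1-I array, XEN1-3, another line in the same labelled medium, differed at least 2-fold for 9 of 112 carriers (8.04%), beside 9.11% of all tested probe sets. With an offset at the 50th percentile the count was 3, and with the filter at the 60th percentile 6. Of these 5 were higher and 4 lower, where the shares of all tested probe sets were 4.58% and 4.53%. Slc34a2 (NaPi-IIb), the sodium-phosphate cotransporter of epithelia, stood at 34.2, 26.8 and 149 in XEN (1.84) and at 8.50 in ES. Slc35g3 (1.40), the choline carrier Slc44a1 (1.04) and Slc35b2 (1.01), which carries the sulfate donor PAPS into the Golgi apparatus, were also higher. Slc35b2 was level in the other arrays, at 143, 148 and 149 in ES, IM8A1-I and IM8A1-II, and at 310.4 in XEN1-3. Slc29a2 was the fifth, at 12.9 and 36.6.

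Slc7a7 (y+LAT1), which exports cationic amino acids at the basolateral membrane with Slc3a2, was lower in XEN1-3. It was at 459 units in ES and at 193, 209 and 50.7 in XEN, and the log2 difference of XEN1-3 from IM8A1-I was -1.73. Against ES it did not pass with all arrays (adjusted p = 0.188). Without XEN1-3, with only the IM8A1 line left, it passed as lower (-1.15, adjusted p = 0.0391). Slc9a3r1 differed by -1.37 between XEN1-3 and IM8A1-I. Slc7a1 and Slc22a2 were the other lower genes, at 8.0 and 10.7 units in XEN1-3, under the limit, so that no size is given. Slc38a10 (-0.98) and Slc12a2 (-0.87) stayed just under 2-fold. Both comparisons use IM8A1-I, so they are not independent of each other.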

How the data were processed

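The authors deposited intensity summaries on a linear scale for 12488 probe sets and 4 arrays. No label or file header names the summarising software. The deposited intensities had 2% trimmed means between 150.088 and 150.095, which shows prior scaling. Symbols were read from the supplied platform annotation, and gene IDs matched all 150 genes to the RefSeq table of GRCm38.p6 with 0 symbols changed. Chip type, lot and fluidics messages were taken per the file headers. Arrays were rescaled to a common 2% trimmed mean, 66 control probe sets were left out, 10.5 units (the 25th percentile) were added and log2 was taken. Probe sets at or above 27.3 units on at least 1 array were tested with limma 3.58.1 in R 4.3.3 (eBayes with a trend, prior of 3.76 and 2 residual degrees of freedom, two-sided, Benjamini-Hochberg over 8582 probe sets). The script was tested on simulated data. XEN cultures were compared array against array without a test. For a gene with 1 group under the limit on every array, "at least" folds divide the geometric mean of the other group by the limit.

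Substrate classes follow family numbers, with exceptions for single genes. Genes were named by rule: up to 3 per class and direction with the smallest p, the smallest p where a class had no call, the 4 largest differences in each direction within XEN among genes reaching 84.7 units (the 60th percentile), and called partner genes. Others, such as Slc2a1, Slc7a1 and Slc25a4, were chosen after their values were seen. Members and lists were chosen with earlier results of these data known. Alternatives changed the offset, floor, scaling, filter, probe set rule, variance trend and arrays. Precision is limited by the number of arrays. Figures were drawn with matplotlib 3.10.9.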

Additional observations from a re-analysis of the deposited data

How the results depend on the processing

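The count of 10 carriers higher in XEN was 3 with values raised to the limit, and 1 to 19 with single XEN arrays left out, while the count of 4 lower was 3 to 6. With the other alternatives run the counts were 7 to 11 and 4 or 5. The count of at least 2-fold differences between IM8A1-II and IM8A1-I was 12, and 7 when the offset was the 50th percentile, and between XEN1-3 and IM8A1-I it was 9 and 3. Of all tested probe sets, 240 rose and 536 fell with values raised to the limit, against 479 and 433. The share of higher against lower calls over all probe sets moved with the offset too (394 and 531 at the 50th percentile). Over the named genes, 425 alternative values kept direction and side of the threshold, 39 lost the call, 10 gained it and 2 changed sign. Of 208 alternative class medians 35 moved by more than the spread between XEN cultures, and of 442 class counts 47 moved by over 1.5 times. The class median ran from 0.48 to 0.88 for amino acids, 0.15 to 0.34 for zinc, iron, copper and magnesium, 0.076 to 0.22 for mitochondrial carriers and 0.35 to 0.76 for nucleotide sugars. Of the named genes that changed sign, Slc12a2 ran from -0.032 without IM8A1-II to 1.26 without XEN1-3, and Slc6a6 was 0.21 with the mean over probe sets. Neither was called. The cause was not tested. No paired analysis was possible because the groups share only replicate number 1, given in order of deposit, and the ES group has 1 array. For 38 of the 150 genes the chosen probe set was too dim to be tested, and signal over background limits Slc7a3, Slc27a2, Slc27a3, Slc26a2 and Slc25a10 to lower bounds, and the size of the fall of Slc38a4 rests on signal near background too.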
